A study of Mus musculus with 61 samples.

Results

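Gene expression 1 h after IL-6 was compared between hepatocytes that lack gp130 and control hepatocytes, on 12 of the 61 Illumina MouseWG-6 v2 arrays of the series. The 6 gp130- arrays came from alb-cre tg; gp130flox/flox mice, whose hepatocytes express Cre from the albumin promoter and thereby delete floxed gp130 (Il6st); cells in which that promoter is silent keep the gene. The 6 gp130flox arrays, labelled wild type, came from littermate controls that carry the floxed gene without Cre. Both genotypes are on the C57BL/6 strain, and the isolated hepatocytes were grown on collagen, kept without serum overnight and given 200 ng/mL IL-6 for 1 h. No array at 1 h went without IL-6. A probe was kept where its signal was detected (detection p under 0.05) on at least 5 of the 12 arrays, and the brightest probe stood for its gene, which left 10071 of the 19057 genes on the array. Signals were corrected for background, quantile-normalized and put on the log2 scale, and every level below is such a log2 signal. Differences are gp130- minus gp130flox with limma's standard error (SE), and calls needed both a fold above 1.5 and a Benjamini-Hochberg p below 0.05.

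IL-6 binds its receptor Il6ra on the hepatocyte, and the pair engages gp130, the shared signaling subunit for IL-6, LIF, oncostatin M and related cytokines. The kinases bound to gp130 phosphorylate STAT3, which dimerizes, enters the nucleus and binds palindromic elements. Its early targets in hepatocytes are the feedback inhibitor Socs3 and transcription factors such as Junb and Cebpb, and its later output is the hepatic acute phase response, the secretion of plasma proteins such as serum amyloid A, fibrinogen and hepcidin.

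The columns of signals carry numbers, 1 to 4 in a first set of arrays and 6 to 11 in a second, and the sources used here do not say what a number stands for. The gp130- arrays at 1 h carried 2, 3 and 4 in the first set and 6, 7 and 9 in the second. The gp130flox arrays carried 1 and 2 in the first set and 7, 8, 9 and 11 in the second. The sets differed far more than the genotypes. Between sets 4413 genes passed the same thresholds (43.8% of those tested), and the first principal component, with 71.5% of the variance, parted the sets. Arrays of different genotype in a set correlated with a median of 0.971, and arrays of a genotype in different sets with a median of 0.871. All differences therefore came from a fit with the set as a covariate, and values within each set are given where they part. Nothing in the labels ties an array to an animal, so p-values measure the spread between these arrays. The legend of the study's supplementary table counts fewer mice per genotype than there are arrays here at 1 h. A figure legend of the study puts the number per group above that count. Whether arrays share an animal is thus not known, and p-values may be too small if they do. The arrays detected 15638 to 19111 probes each. Xist was detected and the Y-linked Eif2s3y and Kdm5d were not on arrays gp130- 2 and gp130- 3, with the reverse on the other 10 arrays by the main probes of these genes. Both arrays with Xist are gp130- arrays of the first set, and each leave-out of them is among the values below. Array gp130- 4, which lacked Xist, lay apart from gp130- 2 and gp130- 3 of its set on the second principal component. Fits without gp130- 4 leave only gp130- arrays with Xist in the first set, against gp130flox arrays without it. Sex and genotype cannot be told apart there.

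Of the hepatocyte markers, Ttr, Apoa1 and Hnf4a were detected on all 12 arrays, Asgr1 on 10 and Alb, with a dim probe, on 7. The summed linear signal of 26 hepatocyte identity genes lay between 34131 and 76920 on gp130- arrays, against 27611 to 68070 on gp130flox arrays. It lay between 63393 and 76920 in the second set, against 27611 to 43500 in the first. Among markers of other liver cells, the macrophage markers Adgre1 and Csf1r were detected on 12 arrays and Clec4f on 10, the endothelial Pecam1, Cdh5 and Stab2 on 11 each and Kdr on 1, and the stellate cell markers Acta2 on 12, Des on 10 and Col1a1 on 3. Krt7 and Krt19 of cholangiocytes were detected on 5 each, and Ptprc, Lrat, Pdgfrb, Epcam and Cd3e on 0. Several markers differed between the sets. Means in the first and second sets were 8.55 and 4.31 for Krt19 and 9.50 and 6.57 for Acta2. The other way went Adgre1, with 6.09 and 7.82, and the hepatocyte marker Asgr1, with 4.83 and 11.60. The sum of 18 Kupffer cell and macrophage markers was 1614 to 9017 on gp130- arrays and 2288 to 10264 on gp130flox arrays, that of 18 endothelial markers 886 to 4057 and 815 to 2548, that of 18 stellate cell markers 1973 to 13224 and 2300 to 9164, and that of 15 cholangiocyte and progenitor markers 28235 to 51734 and 31469 to 54143. These ranges overlapped between genotypes. In the first and second sets the sums were 1614 to 9017 and 7131 to 10264 for macrophage markers and 815 to 1300 and 2096 to 4057 for endothelial markers. They were 6039 to 13224 and 1973 to 3054 for stellate cell markers, and 49111 to 54143 and 28235 to 38928 for cholangiocyte and progenitor markers. Each genotype has arrays in both sets, so the overlap says little on cell content by genotype. Of the members tested, 0 of 14 Kupffer, 0 of 13 endothelial and 0 of 7 stellate cell markers were called by limma (0 in each list also at an unadjusted p under 0.05), and Sox9 was the single called cholangiocyte and progenitor marker of 11. The part of other cells in the differences below was not tested. In such bulk samples fewer cells of a type and less RNA per cell cannot be told apart.

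The targeted gene had a lower level in gp130- hepatocytes that missed the threshold. Il6st levels were 4.86 at the lowest, 5.65 at the median and 6.02 at the highest on gp130- arrays, against 5.71, 6.41 and 7.18 on gp130flox arrays. The lowest gp130flox array therefore lay below the highest gp130- array. The difference was -0.79 ± 0.23 (SE), and limma did not call it (adjusted p = 0.0975), though without gp130flox 8 it did (-0.93, adjusted p = 0.0473). An exact two-sided permutation test of genotype within the sets gave p = 0.0171 over 350 permutations. Another probe for Il6st gave no detected signal, on 0 of the 12 arrays. The place of both probes relative to the deleted stretch is not known here, so this gene checks the labels only in part.

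In all, 172 genes were called, 1.71% of those tested. Of these 95 were lower in gp130- hepatocytes (0.943%) and 77 were higher (0.765%), while the median difference over all genes was 0.00. The lower genes reached larger differences, down to -4.59 for Saa1, and the highest positive one was 1.91 for Depp1. The genotypes did not overlap over the 12 arrays for 51 genes (0.506%), of which 27 were lower (0.268%) and 24 higher (0.238%) in gp130- hepatocytes. Of the called genes, 21 of the 95 lower and 13 of the 77 higher ones did not overlap. All 172 had the same sign in both sets. The fit that chose them ran over both sets, so this agreement is in part built in and is a description only. Some named genes were near background: G6pc was detected on 3 gp130- and 4 gp130flox arrays, Slc17a4 on 5 and 4, Ugt1a9 on 5 and 5, Bmp4 on 4 and 6, Sult1c2 and Il17rb on 6 and 4, and Tnf on 6 and 5. The called lower genes had a smaller size than the fold threshold in the first set for 28 genes and in the second for 5, and the called higher ones for 27 and 5. Leaving out an array of the second set gave fewer calls, 86 without gp130- 7, 100 without gp130- 6, 119 without gp130- 9, and 92, 106, 87 and 93 without gp130flox 7, 8, 9 and 11. Leaving out an array of the first set gave more, 177 to 232.

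**Figure D1:**
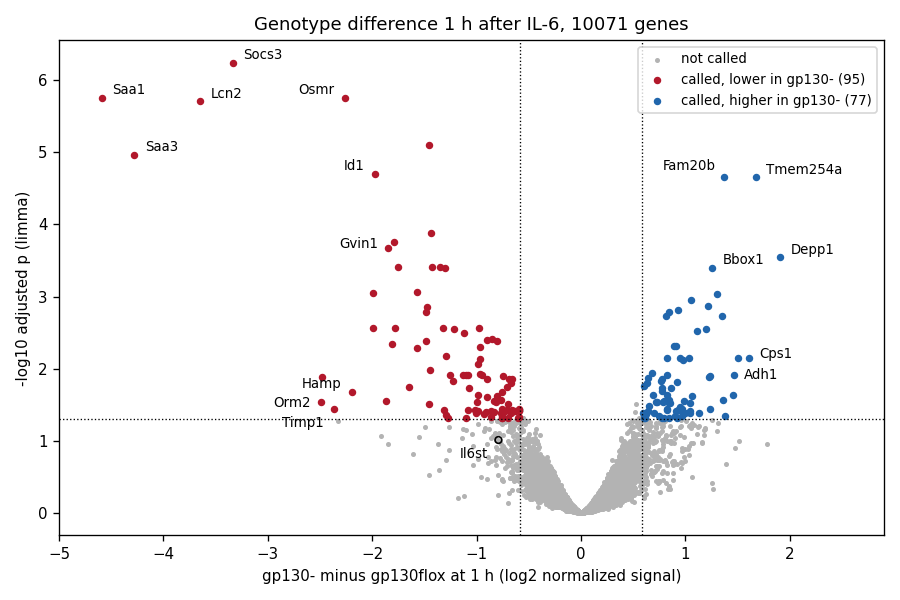
Difference between genotypes at 1 h (horizontal axis, gp130- minus gp130flox, log2 normalized signal) against -log10 of limma's adjusted p (vertical axis) for 10071 genes. Red points are the 95 genes called lower and blue points the 77 called higher in gp130- hepatocytes; dotted lines mark the thresholds, and Saa1, Saa3, Lcn2 and Socs3 lie far to the left while Il6st lies below the line for adjusted p.

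The promoters of called genes were read for the palindromic element of STAT factors, since the called lower genes include many STAT3 targets. The motif TTCNNNGAA reads the same on both strands. It was looked for in the 300 bases from 250 before to 50 after each annotated start of transcription in RefSeq (GRCm38.p6). It stood in 2726 of 32851 promoters (8.3%), and in at least 1 promoter of 688 of the 8211 tested genes that have an entry (8.38%). Among called genes with an entry it stood in 15 of 73 lower ones (20.5%) and in 4 of 64 higher ones (6.25%). Among genes called higher at 1 h than at 0 h in gp130flox hepatocytes it stood in 7 of 20 (35.0%). These shares are descriptions, and a match is not a site. The promoters of 4 called lower genes are printed because they show the motif (capitals) in a feedback inhibitor, an mRNA-destabilizing factor, a second feedback inhibitor and an iron hormone. They were picked after the values were seen. Socs3 is read from the minus strand at chr11:117969317-117969616, with the motif at -154 from the start. Zfp36 is read from the minus strand at chr7:28379179-28379478, with the motif at -17. Cish is read from the plus strand at chr9:107296409-107296708, with motifs at 1 and 12 from the start. Hamp is read from the minus strand at chr7:30943980-30944279, with the motif at -97.
Socs3: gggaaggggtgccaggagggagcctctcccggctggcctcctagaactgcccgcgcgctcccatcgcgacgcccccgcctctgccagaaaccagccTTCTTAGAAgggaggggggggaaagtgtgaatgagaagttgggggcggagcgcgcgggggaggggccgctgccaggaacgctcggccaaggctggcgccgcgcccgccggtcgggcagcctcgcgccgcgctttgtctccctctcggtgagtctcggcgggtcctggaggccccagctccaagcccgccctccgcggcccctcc
Zfp36: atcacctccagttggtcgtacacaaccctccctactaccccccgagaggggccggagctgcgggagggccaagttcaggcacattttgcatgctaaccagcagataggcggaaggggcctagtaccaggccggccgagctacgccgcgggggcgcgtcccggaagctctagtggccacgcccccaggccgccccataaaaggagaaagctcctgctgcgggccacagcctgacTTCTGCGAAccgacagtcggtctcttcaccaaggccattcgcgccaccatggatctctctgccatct
Cish: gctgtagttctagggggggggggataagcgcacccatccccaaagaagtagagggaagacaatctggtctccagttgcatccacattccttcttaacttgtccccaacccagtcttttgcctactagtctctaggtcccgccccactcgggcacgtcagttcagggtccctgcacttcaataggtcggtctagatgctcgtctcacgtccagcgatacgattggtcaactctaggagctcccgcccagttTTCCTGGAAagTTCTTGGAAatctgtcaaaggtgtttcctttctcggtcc
Hamp: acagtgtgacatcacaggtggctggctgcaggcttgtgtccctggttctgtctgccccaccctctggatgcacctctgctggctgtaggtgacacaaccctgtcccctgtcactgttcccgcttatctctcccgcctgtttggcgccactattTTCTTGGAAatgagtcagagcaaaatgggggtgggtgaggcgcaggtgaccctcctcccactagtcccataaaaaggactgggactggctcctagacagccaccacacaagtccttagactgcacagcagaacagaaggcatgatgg

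Acute phase genes carried the widest differences. Of 28 positive acute phase genes tested, 9 were lower in gp130- hepatocytes, 0 higher, and the median over the 28 was -0.47. Saa1, a serum amyloid A that rides on high-density lipoprotein in inflammation, had levels of 4.19, 6.53 and 9.41 (lowest, median and highest) in gp130- hepatocytes, against 7.43, 13.80 and 14.64 in gp130flox hepatocytes. The 3 gp130- arrays of the second set lay above the gp130flox pair of the first, so the groups overlapped, but they parted within each set, with differences of -3.51 in numbers 1 to 4 and -5.34 in numbers 6 to 11. The fit gave -4.59 ± 0.32 for Saa1, or 24.1-fold (adjusted p = 1.74e-06). Saa1 was detected on 4 of the 6 gp130- arrays, and numbers 2 and 3 lay at background with 4.19 and 4.27, so this size rests in part on undetected signal. In numbers 6 to 11 all arrays detected it. Saa2 is a close copy of Saa1, and a probe may take signal from both. Its own difference of -2.33 missed the threshold (adjusted p = 0.0525), and a second Saa1 probe differed by -2.03.

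Saa3, the serum amyloid A form made also outside the liver, separated the genotypes on every array. Its levels were 4.98, 6.07 and 7.16 in gp130- hepatocytes, against 8.54, 10.69 and 11.23 in gp130flox hepatocytes, a difference of -4.28 ± 0.36 (adjusted p = 1.08e-05) or 19.4-fold. Lcn2, lipocalin 2, which binds bacterial siderophores and so withholds iron, had levels of 8.96, 9.57 and 10.88 in gp130- hepatocytes, against 12.89, 13.34 and 13.65 in gp130flox hepatocytes. The highest gp130- array stayed below the lowest gp130flox array. The difference was -3.65 ± 0.26, or 12.5-fold (adjusted p = 1.98e-06).

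Of the fibrinogen genes, Fga and Fgg followed the same direction. Fga, the alpha chain, had levels of 7.71, 10.45 and 11.88 in gp130- hepatocytes, against 11.32, 13.08 and 13.33 in gp130flox hepatocytes. They overlapped between sets only, and the difference was -1.99 ± 0.30 (adjusted p = 0.00272). Fgg, the gamma chain, differed by -0.99 ± 0.17 (adjusted p = 0.00854), and the fibrinogen-related hepatokine Fgl1 by -1.99 ± 0.26 (adjusted p = 0.000898). Orm2, an orosomucoid, had levels of 4.54, 8.79 and 10.04 in gp130- hepatocytes, against 7.79, 11.57 and 12.23 in gp130flox hepatocytes, with a difference of -2.49 ± 0.53 (adjusted p = 0.0286). Its call was lost, at adjusted p up to 0.0734, without gp130flox 2 or without any 1 of the 7 arrays of the second set. Of the positive acute phase genes, 19 were not called, among them Orm1 at -1.85 (adjusted p = 0.109), Serpina3n at -0.42 and Crp at 0.51. By limma 0 of 15 negative acute phase genes were called, with 7 at an unadjusted p under 0.05 and a list median of 0.33.

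**Figure D2:**
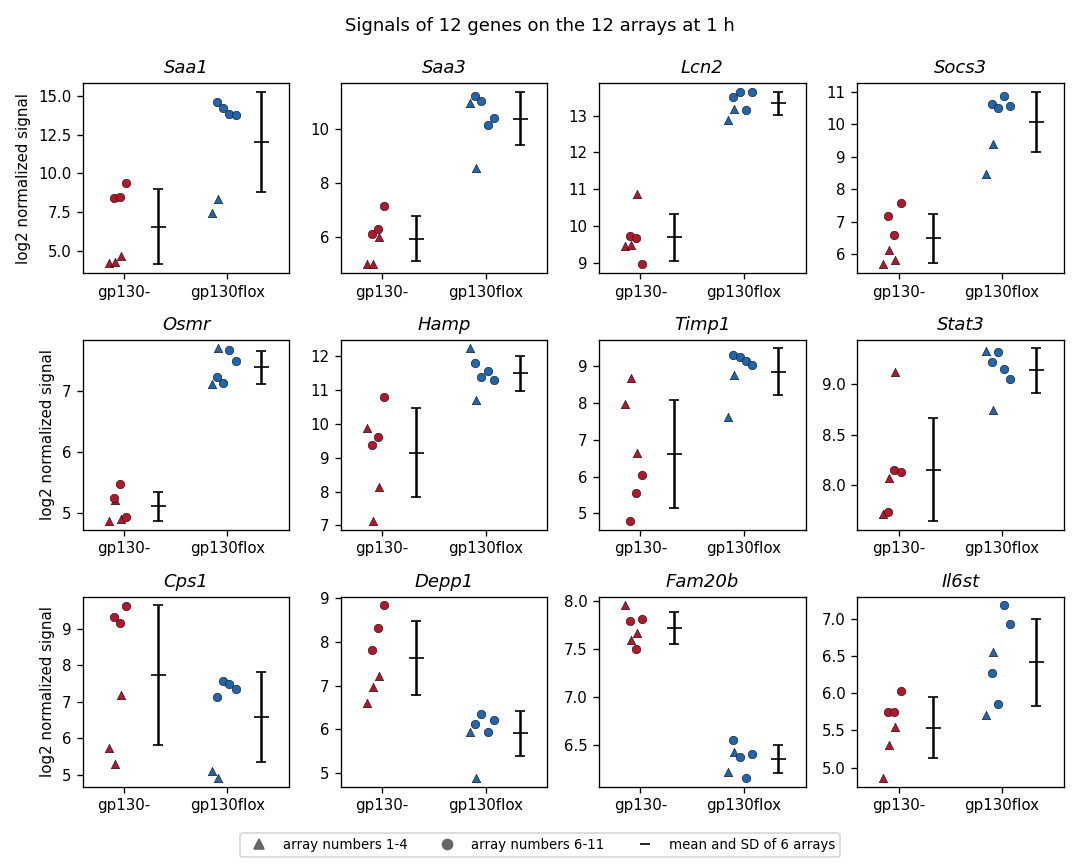
Log2 normalized signals (vertical axes) of 12 genes on the 12 arrays at 1 h, gp130- in red and gp130flox in blue, with triangles for arrays numbered 1 to 4 and circles for 6 to 11; bars give the mean and SD of 6 arrays. Saa3, Lcn2, Socs3, Osmr, Depp1 and Fam20b separate the genotypes, whereas the signals of Saa1, Timp1 and Cps1 also differ between the sets and Il6st overlaps.

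Of 20 iron handling genes, 3 were lower in gp130- hepatocytes and 0 higher: Lcn2, Hamp and Id1. Hamp, the peptide hormone hepcidin that limits iron export into plasma, had levels of 7.13, 9.49 and 10.79 in gp130- hepatocytes, against 10.69, 11.47 and 12.23 in gp130flox hepatocytes. The groups overlapped by a single pair, gp130- 9 over gp130flox 2. The difference was -2.20 ± 0.44 (adjusted p = 0.021). Without gp130flox 7, gp130- 6 or gp130- 7 the adjusted p of Hamp was 0.0533, 0.0631 and 0.0585.

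BMP signals meet the STAT3 input at the hepcidin gene. The list of BMP and activin targets had 4 of 12 members lower and 0 higher, with a median of -0.48. Besides the direct target Id1, the called members are a ligand subunit, an antagonist and a ligand of these pathways. Id1, an inhibitor of basic helix-loop-helix factors and a direct BMP target, had levels of 5.98, 6.53 and 7.74 in gp130- hepatocytes, against 8.10, 8.43 and 9.26 in gp130flox hepatocytes. No gp130- array reached a gp130flox array, and the difference was -1.97 ± 0.18 (adjusted p = 2e-05). Inhba, the activin A subunit, differed by -1.29 ± 0.22 (adjusted p = 0.00664), the activin antagonist Fst by -0.83 ± 0.19 (adjusted p = 0.0393) and the ligand Bmp4 by -0.76 ± 0.15 (adjusted p = 0.021). The call of Fst was lost without gp130- 2 or any 1 array of the second set (adjusted p up to 0.129), and that of Bmp4 without gp130flox 7, gp130flox 11, gp130- 6 or gp130- 7 (up to 0.0712). The list had 2 calls without any of these last 4 arrays. Id2 and Id3 were at -0.52 and -0.50 and were not called.

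Feedback inhibitors of cytokine signaling were lower for 4 of 17 members and higher for 0, and the list median was -0.16. Socs3, which binds gp130 and shuts off its kinases, had levels of 5.69, 6.37 and 7.57 in gp130- hepatocytes, against 8.46, 10.53 and 10.87 in gp130flox hepatocytes. The groups did not overlap, and the lowest gp130flox arrays were the pair of the first set. The difference of -3.33 ± 0.20, or 10.1-fold, had the smallest adjusted p of all genes (5.74e-07). Cish, a relative that acts on STAT5 signaling, had levels of 6.96, 7.87 and 8.82 in gp130- hepatocytes, against 7.92, 9.90 and 10.32 in gp130flox hepatocytes. The difference was -1.57 ± 0.26 (adjusted p = 0.00515), with overlap through the single low array gp130flox 1. Socs5 differed by -0.97 ± 0.18 (adjusted p = 0.0119). Socs2, which restrains growth hormone signaling, differed by -1.30 ± 0.30 (adjusted p = 0.0439), and its call was lost without gp130flox 2, gp130- 2 or any 1 array of the second set (adjusted p up to 0.0988). The phosphatases and PIAS proteins of the list were not called.

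Of 7 tested receptors and cytokines of the gp130 family, Osmr was lower and the other members were not called. Osmr, which pairs with gp130 to receive oncostatin M, had levels of 4.88, 5.08 and 5.48 in gp130- hepatocytes, against 7.11, 7.36 and 7.70 in gp130flox hepatocytes. Both groups were tight, stood apart on every array and differed alike in both sets, by -2.40 and -2.16. The fit gave -2.26 ± 0.16 (adjusted p = 1.74e-06). Il6ra, the ligand-binding receptor of IL-6, differed by -0.08 ± 0.12 (adjusted p = 0.823).

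Of 8 JAK kinases and STAT factors, Stat3 was lower in gp130- hepatocytes. Its levels were 7.71, 8.10 and 9.11 in gp130- hepatocytes, against 8.74, 9.18 and 9.33 in gp130flox hepatocytes, with overlap through gp130- 4 alone. The difference was -0.996 ± 0.21 (adjusted p = 0.0293). The call of Stat3 was lost without gp130flox 1 or without any 1 array of the second set (adjusted p up to 0.0909). Jak1, Jak2, Tyk2 and Stat5a lay between -0.25 and 0.30.

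Of 32 STAT3 target genes 20 were lower in gp130- hepatocytes (62.5%) and 0 higher, and the median was -0.99. Over all genes tested 0.943% were called lower. The list was chosen with earlier results of these data known and holds genes that the study names. It is therefore no independent evidence of direction. The called members include Saa1, Saa3, Lcn2, Socs3, Osmr, Hamp, Fga, Fgg, Cish and Stat3 from above. Of 37 genes that the study itself names, chosen on these samples and so no independent evidence of direction, 23 were lower and 0 higher. Bcl3, an atypical IkappaB protein that works with NF-kappaB p50 in the nucleus, had levels of 5.89, 6.16 and 6.59 in gp130- hepatocytes, against 7.15, 7.72 and 8.23 in gp130flox hepatocytes. Its genotypes did not overlap, and the difference was -1.49 ± 0.21 (adjusted p = 0.00164). Nfkbiz, the nuclear IkappaB zeta that promotes transcription of Lcn2 in other cells, had levels of 6.86, 7.79 and 8.78 in gp130- hepatocytes, against 9.19, 9.33 and 9.85 in gp130flox hepatocytes. It did not overlap either, and differed by -1.75 ± 0.21 (adjusted p = 0.000386). Bcl3 and Nfkbiz were the called members among 15 NF-kappaB subunits and inhibitors. Rela and Nfkb2 of that list were at 0.19 and -0.05.

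Timp1, an inhibitor of matrix metalloproteinases, was among 22 extracellular matrix genes the single lower one, and Col18a1, the collagen that yields endostatin, the single higher one. Timp1 levels were 4.79, 6.34 and 8.68 in gp130- hepatocytes, against 7.61, 9.08 and 9.30 in gp130flox hepatocytes. The difference was -0.43 in numbers 1 to 4 and -3.71 in numbers 6 to 11, where no gp130- array reached a gp130flox array. A limma test of whether the difference depends on the set did not call Timp1. The fit gave -2.36 ± 0.52 (adjusted p = 0.0364), and without any 1 array of the second set the call was lost (adjusted p up to 0.117). Col18a1 differed by 0.78 ± 0.16 (adjusted p = 0.0204), lost without gp130flox 7, gp130flox 9 or gp130- 6 (adjusted p 0.0533, 0.0541 and 0.0674).

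Immediate early genes were lower for 6 of 21 members and higher for 0, with a median of -0.40. Junb, an AP-1 subunit, had levels of 7.47, 8.67 and 8.80 in gp130- hepatocytes, against 9.77, 9.95 and 10.39 in gp130flox hepatocytes, without overlap, and differed by -1.47 ± 0.20 (adjusted p = 0.00139). Fos, its partner in AP-1, had levels of 5.55, 5.86 and 6.58 in gp130- hepatocytes, against 6.51, 7.68 and 7.90 in gp130flox hepatocytes. It overlapped only through gp130flox 1, and the difference was -1.48 ± 0.24 (adjusted p = 0.00414). Egr1, a zinc finger factor induced by growth signals, did not overlap, with 8.94, 10.49 and 10.92 in gp130- hepatocytes, against 10.99, 11.70 and 12.19 in gp130flox hepatocytes. Its difference of -1.31 ± 0.29 (adjusted p = 0.0374) was no longer called without gp130flox 2, 7, 8, 9 or 11 or gp130- 6 or 7 (adjusted p up to 0.117). Zfp36, tristetraprolin, which binds and destabilizes cytokine mRNAs, had levels of 7.24, 7.95 and 8.79 in gp130- hepatocytes, against 8.29, 9.18 and 9.57 in gp130flox hepatocytes, with partial overlap. It differed by -0.98 ± 0.15 (adjusted p = 0.00272). The count of called immediate early genes was 3 without gp130flox 7, 9 or 11 or gp130- 6 or 7, and 4 to 8 without each other array. Of 14 MAP kinase feedback genes, the Dusp and Sprouty group, 0 were called by limma and 4 had an unadjusted p under 0.05.

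Among 17 C/EBP and survival genes, 3 were lower and 0 higher in gp130- hepatocytes. Pim3, a kinase that favors survival, differed by -1.35 ± 0.16 (adjusted p = 0.000393). Bcl2l11, the proapoptotic Bim, differed by -0.98 ± 0.20 (adjusted p = 0.0228), and Cebpb, the C/EBP factor once named for its part in the IL-6 response, by -0.90 ± 0.19 (adjusted p = 0.0249). Bcl2l11 and Cebpb both lost the call without gp130flox 1, 2, 9 or 11 or gp130- 6 or 7 (adjusted p up to 0.0733 for Bcl2l11 and 0.0718 for Cebpb). Cebpd and Pim1, also known STAT3 targets, were at -0.14 and 0.20.

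Among 26 other cytokines and their receptors, Il24 and Il13ra1 were lower and Tnf and Il17rb higher. Il24, a cytokine of the IL-10 family, was near the background of gp130- arrays and detected on 3 of them, with levels of 4.20, 4.50 and 4.71, against 5.02, 6.13 and 6.45 in gp130flox hepatocytes. The groups did not overlap, and the difference was -1.32 ± 0.20 (adjusted p = 0.0027). Il13ra1, a receptor chain for IL-13 and IL-4, differed by -1.26 ± 0.23 (adjusted p = 0.0123). Tnf differed by 0.62 ± 0.14 (adjusted p = 0.0428) and Il17rb, a receptor for IL-25, by 0.84 ± 0.20 (adjusted p = 0.0489). Tnf lost its call without gp130flox 1, gp130- 3 or any 1 array of the second set (adjusted p up to 0.129), and Il17rb without gp130flox 2, 7, 8, 9 or 11 or gp130- 2, 6 or 7 (up to 0.147). Without gp130flox 7, 8, 9 or 11 or gp130- 6 or 7 the list had 2 calls. Of 18 chemokines only Ccl9 was called, at -0.86 ± 0.20 (adjusted p = 0.0475), and not without gp130flox 1 or any 1 array of the second set (adjusted p up to 0.109). Cxcl1, a neutrophil attractant, had levels of 8.33, 11.45 and 11.97 in gp130- hepatocytes, against 11.06, 12.86 and 13.01 in gp130flox hepatocytes. Its difference of -1.55 ± 0.44 missed the threshold (adjusted p = 0.0889), but passed it without gp130- 4 (-1.90, adjusted p = 0.00371). That fit leaves in the first set only gp130- arrays with Xist.

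Further lower genes had roles outside signaling and the acute phase. Wfdc2, a secreted protein with a whey acidic protein domain, had levels of 5.51, 9.11 and 12.80 in gp130- hepatocytes, against 9.35, 9.85 and 13.32 in gp130flox hepatocytes. Its difference, -2.48 ± 0.46 in all (adjusted p = 0.0129), was -0.89 in numbers 1 to 4 and -3.59 in numbers 6 to 11. Mcm6, a subunit of the replicative helicase, differed by -0.48 and -2.85 in the 2 sets and by -1.87 ± 0.39 in the fit (adjusted p = 0.0279). The test of dependence on the set called neither Wfdc2 nor Mcm6. Without any 1 array of the second set the call of Mcm6 was lost (adjusted p up to 0.0935). Mcm4, of the same helicase, differed by -0.85 ± 0.13 (adjusted p = 0.0039), although its 2 dimmer probes had differences of 0.15 and 0.24. These were the called members among 36 cell cycle genes, whose median was -0.27. Gvin1, a very large interferon-inducible GTPase, had levels of 6.72, 7.25 and 8.15 in gp130- hepatocytes, against 8.92, 9.27 and 9.74 in gp130flox hepatocytes. It did not overlap and differed by -1.85 ± 0.21 (adjusted p = 0.000212), while 0 of 23 interferon response genes were called by limma (4 at an unadjusted p under 0.05). Pdzrn3, a ubiquitin ligase with PDZ domains, differed by -1.81 ± 0.29 (adjusted p = 0.00458), and Sox9, the biliary and progenitor factor, by -0.97 ± 0.16 (adjusted p = 0.00503). Pros1, protein S of the anticoagulant system, differed by -0.97 ± 0.17 (adjusted p = 0.0074). It was with Fga and Fgg 1 of 3 lower members among 43 complement and coagulation genes, of which C8g was higher.

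The few called members of the hepatocyte identity, fatty acid oxidation, gluconeogenesis and cytochrome P450 lists were higher in gp130- hepatocytes. Calls made up 16.7%, 11.8%, 10.5% and 3.03% of the members tested, against 1.71% of all genes. The share of the cytochrome P450 list rests on a single gene. Of 24 hepatocyte identity genes, 4 were higher and 0 lower, and the median was 0.45. Cps1, the carbamoyl phosphate synthetase that opens the urea cycle, had levels of 5.31, 8.18 and 9.63 in gp130- hepatocytes, against 4.91, 7.24 and 7.57 in gp130flox hepatocytes. Levels in the first set were low in both genotypes, and within the sets the differences were 1.06 and 1.99. The fit gave 1.61 ± 0.28 for Cps1 (adjusted p = 0.00701). Fah, the last enzyme of tyrosine breakdown, did not overlap, with 10.37, 10.84 and 11.93 in gp130- hepatocytes, against 9.69, 9.95 and 10.22 in gp130flox hepatocytes, and differed by 1.11 ± 0.17 (adjusted p = 0.00298). Nr1i2, the xenobiotic receptor PXR, differed by 0.81 ± 0.12 (adjusted p = 0.00188). Nr1h4, the bile acid receptor FXR, differed by 0.91 ± 0.21 (adjusted p = 0.0387), a call lost without gp130flox 1, 2, 7, 9 or 11 or gp130- 2, 3, 6 or 7 (adjusted p up to 0.116).

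Higher enzymes of amino acid, alcohol and drug metabolism stood beside them. Adh1, the main liver alcohol dehydrogenase, had levels of 9.02, 11.14 and 11.99 in gp130- hepatocytes, against 7.04, 10.59 and 10.86 in gp130flox hepatocytes, and differed by 1.46 ± 0.27 (adjusted p = 0.0123). Its ranges overlapped across the sets, and the differences within them were 1.83 and 1.21. Gamt, which makes creatine, differed by 1.30 ± 0.17 (adjusted p = 0.000913), Bbox1, the last enzyme of carnitine synthesis, by 1.25 ± 0.15 (adjusted p = 0.000401), and Cdo1, which oxidizes cysteine, by 1.36 ± 0.28 (adjusted p = 0.0269). Fmo5, a flavin monooxygenase, differed by 1.23 ± 0.23 (adjusted p = 0.0129), Sult1c2, a sulfotransferase, by 1.24 ± 0.23 (adjusted p = 0.0125), and Ugt1a9, a glucuronosyltransferase, by 1.45 ± 0.30 (adjusted p = 0.0232). The Ugt1a transcripts share their 3' exons, so a probe may not tell Ugt1a9 from its relatives. The call of Cdo1 was lost without gp130flox 2, 7, 8, 9 or 11 or gp130- 7 or 9, and that of Ugt1a9 without any 1 array of the second set (adjusted p up to 0.0857 for both).

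Of 33 cytochrome P450 genes, Cyp2e1 alone was called, and the list median was 0.43. Cyp2e1 shows how the sets weigh on these enzymes: on arrays numbered 1 to 4 its levels were 4.78 to 5.10 in gp130- hepatocytes and 4.30 to 4.45, without detection, in gp130flox hepatocytes, and on arrays numbered 6 to 11 they were 13.42 to 13.97 and 12.18 to 13.05. Within each set the gp130- arrays were higher. The difference was 0.80 ± 0.17 (adjusted p = 0.0285) and turned to -0.63 in a fit without the set. The call was lost without gp130flox 8, gp130- 7 or gp130- 9 (adjusted p 0.0637, 0.0916 and 0.0646). C8g, a complement component, differed by 0.79 ± 0.19 (adjusted p = 0.0489) and likewise turned, to -0.30, without the set. C8g kept its call only without gp130- 3 or gp130- 4, and its adjusted p without any other array reached 0.11.

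Of 17 fatty acid oxidation genes, Acaa2 and Acaa1b were higher and 0 lower, with a median of 0.38. Both encode thiolases, mitochondrial and peroxisomal. Acaa2 differed by 1.05 ± 0.14 (adjusted p = 0.00111), with 1.10 and 1.02 in the sets. Acaa1b differed by 1.05 ± 0.24 (adjusted p = 0.0387), and lost its call without any 1 gp130flox array, gp130- 2 or gp130- 9 (adjusted p up to 0.0896). Of 19 gluconeogenesis and glycolysis genes, G6pc, the glucose-6-phosphatase that releases glucose, differed by 1.38 ± 0.32 (adjusted p = 0.0457) and Slc2a2, the glucose transporter GLUT2, by 1.06 ± 0.22 (adjusted p = 0.024). Both lost the call without any 1 array of the second set (adjusted p up to 0.145 for G6pc and 0.0857 for Slc2a2). Among 12 circadian clock genes Dbp, an output factor of the clock, was called at 0.93 ± 0.21 (adjusted p = 0.0374), which was lost without gp130flox 1, 7, 9 or 11 or gp130- 2, 3, 6, 7 or 9 (up to 0.0857). By limma 0 of 20 lipid synthesis, 22 ribosomal protein and 27 heat shock and ER stress genes were called, with 2, 1 and 1 at an unadjusted p under 0.05.

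**Figure D3:**
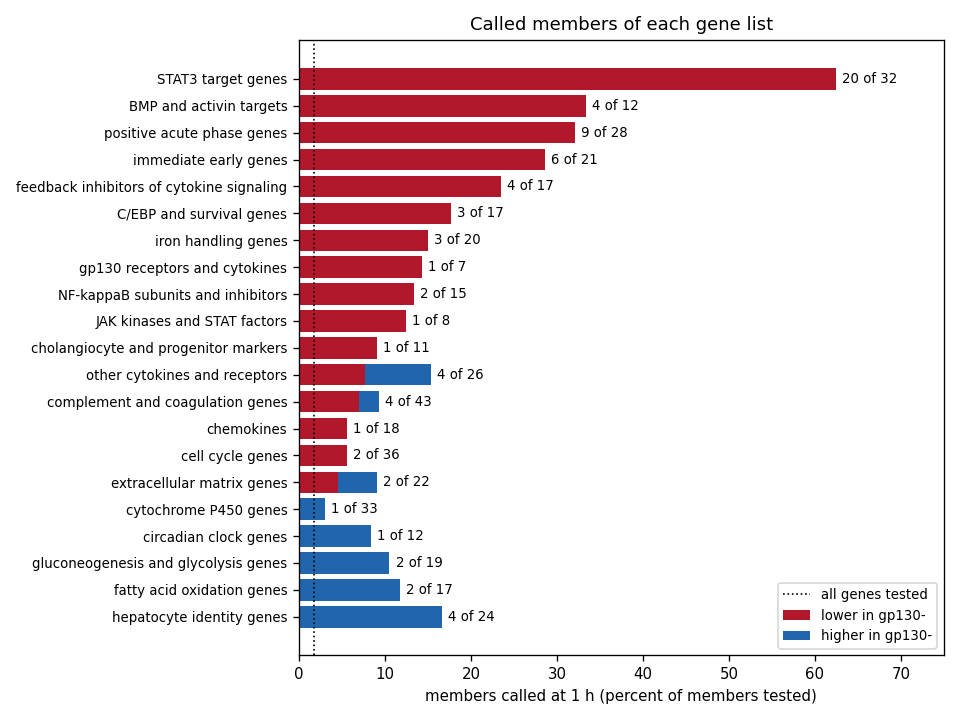
Members of each gene list called at 1 h, as a percentage of the members tested (horizontal axis), in red for lower and blue for higher in gp130- hepatocytes, with the counts beside the bars. The dotted line is the share over all genes tested, 1.71%. Lists with 0 members called and the list of genes that the study names are left out. STAT3 target genes have the longest bar with 20 of 32. All lists were chosen with earlier results of these data known.

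Other higher genes belonged to none of the lists. Depp1, a FOXO target linked to autophagy, had levels of 6.61, 7.53 and 8.84 in gp130- hepatocytes, against 4.89, 6.03 and 6.34 in gp130flox hepatocytes. It did not overlap, and the difference was 1.91 ± 0.22 (adjusted p = 0.000287). Fam20b, a xylose kinase of proteoglycan synthesis, had levels of 7.50, 7.73 and 7.96 in gp130- hepatocytes, against 6.15, 6.39 and 6.55 in gp130flox hepatocytes. The gap between the genotypes was wider than the range of either, and Fam20b differed by 1.37 ± 0.12 (adjusted p = 2.22e-05), with 1.42 and 1.33 in the sets. Tmem254a, a transmembrane protein, differed by 1.67 ± 0.15 (adjusted p = 2.22e-05), Smpdl3b, a membrane phosphodiesterase, by 1.35 ± 0.19 (adjusted p = 0.00188), and both were free of overlap. Slc17a4, an anion transporter of the phosphate transporter family, differed by 1.505 ± 0.26 (adjusted p = 0.00701). Ccdc68, a coiled-coil protein detected on 2 gp130flox arrays, differed by 0.25 in numbers 1 to 4 and 1.92 in numbers 6 to 11. Limma did not call this dependence on the set (adjusted p = 0.0947). The call of Ccdc68 (1.24 ± 0.27, adjusted p = 0.0364) was lost without any 1 array of the second set (adjusted p up to 0.117).

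Differences that were there before IL-6 were set apart from those that came with it. The called genes were largely shifted at 0 h already: of the 95 lower genes 94 had the same sign at 0 h and 33 were called there, and of the 77 higher genes all had the same sign and 27 were called. The median difference of the 95 was -0.64 at 0 h, -1.01 at 1 h and -1.21 at 3 h, and that of the 77 was 0.67, 0.91 and 0.85. Being called at 1 h chose these genes, so the medians at the other times are descriptions. Saa1 differed by -4.62 at 0 h, Saa3 by -4.25, Lcn2 by -3.56 and Osmr by -1.56, all called there.

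The change of the genotype difference between 0 and 1 h was tested on 24 arrays, with the arrays of a genotype that share a column number taken as a block. The block assumes that a number marks the same source at each time, which the sources do not state. It was called for 3 genes (0.0298%), Socs3, Zfp36 and Angptl4, and 53 passed an unadjusted p under 0.05 with the fold. The count was 10 without gp130flox 1 and 5 without gp130- 9. Socs3 levels at 0 h were 5.26, 5.96 and 7.01 in gp130- hepatocytes, against 5.77, 7.07 and 7.33 in gp130flox hepatocytes, and overlapped. From 0 to 1 h Socs3 gained 0.53 in gp130- and 3.30 in gp130flox hepatocytes, which moved the difference by -2.78 (adjusted p = 6.65e-07). Zfp36 differed by 0.09 at 0 h and -0.46 at 3 h. It changed by -0.12 in gp130- and by 0.98 in gp130flox hepatocytes over the first hour, so the difference moved by -1.10 (adjusted p = 0.00708). Angptl4, an inhibitor of lipoprotein lipase, changed by 0.23 in gp130- and by 1.15 in gp130flox hepatocytes, and the difference moved by -0.92 (adjusted p = 0.0225). Its levels at 1 h were 8.25, 11.03 and 11.74 in gp130- hepatocytes, against 10.62, 12.23 and 12.82 in gp130flox hepatocytes, and the difference of -1.26 at 1 h was not itself called (adjusted p = 0.0652), except without gp130- 2 or gp130- 3 (adjusted p 0.0217 and 0.0441). Without gp130flox 2, 9 or 11 or gp130- 2, 3, 4, 6 or 7 the change of Angptl4 was not called (adjusted p up to 0.0935), nor with that block as random (adjusted p = 0.585). The changes of Junb (adjusted p = 0.0541) and Pim3 (adjusted p = 0.08) just missed the threshold.

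**Figure D4:**
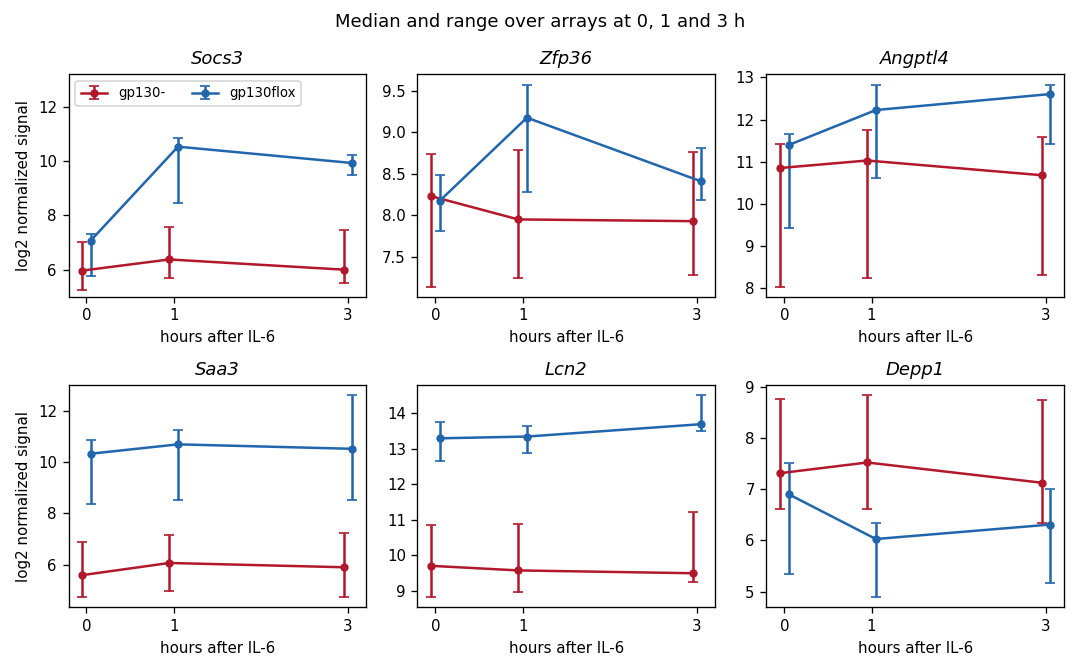
Medians and ranges of log2 normalized signals (vertical axes) at 0, 1 and 3 h after IL-6 for 6 genes, gp130- in red and gp130flox in blue, over 5 to 7 arrays a point. Socs3 parts the genotypes at 1 and 3 h, and Zfp36 and Angptl4 have lower medians in gp130- hepatocytes at both times, with ranges that overlap, while Saa3 and Lcn2 are apart at all 3 times and Depp1 is higher in gp130- hepatocytes.

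Within gp130- hepatocytes 0 genes were called by limma between 1 and 0 h (475 at an unadjusted p under 0.05, 4 of them past the fold). Within gp130flox hepatocytes 26 genes were called between 1 and 0 h (0.258%), 25 of them higher at 1 h (0.248%) and Ccn1 lower. Of the 25, 17 were among the 95 genes lower in gp130- hepatocytes at 1 h. These comparisons share the gp130flox arrays at 1 h. Timp1 changed by -0.12 in gp130- and by 1.34 in gp130flox hepatocytes, Cish by 0.14 and 1.17, Bcl3 by -0.01 and 0.99, Id1 by 0.12 and 0.96, and Nfkbiz by 0.25 and 0.83. The test of the change between genotypes did not call any of these. Between 1 and 3 h the genotype difference changed for 0 genes by limma on 20 arrays (207 past the fold with an unadjusted p below 0.05, smallest adjusted p 0.0902).

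The genotype difference depended on the set for 13 genes at 1 h by the interaction term of limma (0.129%), with 814 at an unadjusted p under 0.05 and past the fold. They are named for that call alone. Fgfr1op2 differed by 0.00 in numbers 6 to 11, against -3.91 in numbers 1 to 4, where its levels were 4.70 to 5.23 in gp130- and 8.65 to 8.99 in gp130flox hepatocytes. Saa2 differed by -4.04 in numbers 6 to 11, against 0.11 in numbers 1 to 4, where it was near background and detected on gp130- 3 alone. In numbers 6 to 11 and then 1 to 4, Apoa1, the main protein of high-density lipoprotein, differed by 0.01 and 2.49, Ifit3, an interferon-induced protein, by 1.54 and -1.55, and G6pc by 2.29 and 0.07. In numbers 1 to 4 G6pc was near background in both genotypes, with levels of at most 4.48. The first set holds the pair of arrays with Xist, both gp130-, and the part of sex or of single arrays in these 13 was not tested. The count was 3 without gp130flox 1, 110 without gp130- 4, 31 without gp130flox 2, 27 without gp130- 9, and 8 without gp130- 2 or gp130flox 9.

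**Figure D5:**
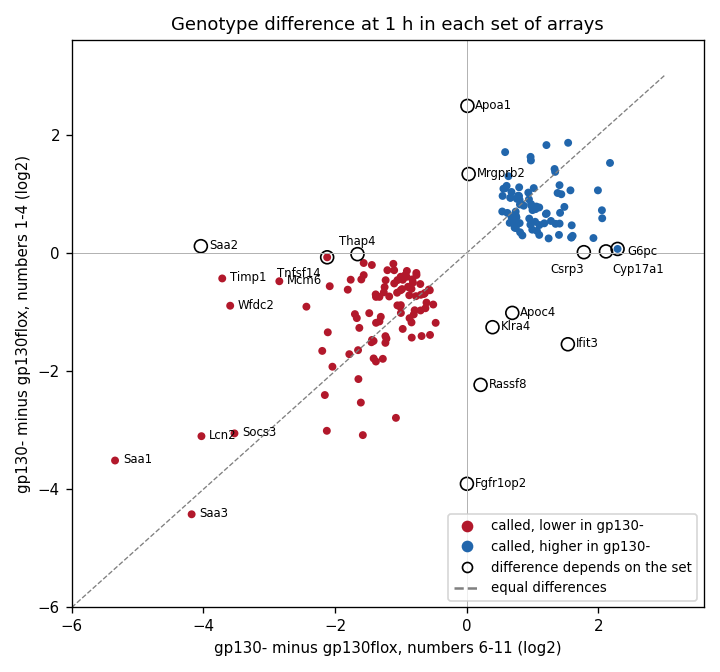
Genotype difference at 1 h (gp130- minus gp130flox, log2) on arrays numbered 6 to 11 (horizontal axis) against that on arrays numbered 1 to 4 (vertical axis), for the 172 called genes in red (lower) and blue (higher) and for the 13 genes with a called interaction (open circles). All 172 called genes lie on the same side in both sets, which their choice by a fit over both sets in part builds in. Fgfr1op2, Apoa1 and Rassf8 lie near 0 on the horizontal axis.

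Genes near the targeted locus were counted as well. Within 10 Mb of Il6st on chromosome 13, in the GRCm38.p6 gene order, 6 of 42 tested genes were called (14.3%, against 1.71% of all genes): 5 lower and 1 higher. They are named here after their values were seen. Paip1, a translation factor partner, had levels of 8.28, 8.83 and 9.61 in gp130- hepatocytes, against 7.12, 7.51 and 8.00 in gp130flox hepatocytes. It did not overlap and differed by 1.22 ± 0.17 (adjusted p = 0.00137), and it was also called at 0 h (1.30) and at 3 h. Esm1, endocan, differed by -1.65 ± 0.32, Zfp131 by -0.90 ± 0.17, Mtrex by -0.76 ± 0.18, 4833420G17Rik by -1.21 ± 0.18 and Fst by -0.83 ± 0.19.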

How the data were processed

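RNA of the 61 hepatocyte cultures was hybridised as biotin-labelled cRNA to 1-colour Illumina arrays. The authors read the probe intensities with GenomeStudio 1.6.0 and deposited them as a non-normalized intensity table beside the detection p-values that the software gives every probe. Their second deposited table holds linear normalized intensity values, made per the paper's methods by cubic spline normalization and a filter on detection; array medians of 39.56 to 39.57 bear out a common scale. No genome build is given in the sources used here.

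From the deposited intensities, limma 3.58.1 (R 4.3.3) corrected background by normexp with negative controls recovered through those detection values, added 16 and quantile-normalized all 61 arrays (neqc). Main test: lmFit and eBayes on the 12 arrays at 1 h, with genotype and the set of column numbers (1 to 4 or 6 to 11), and Benjamini-Hochberg adjustment over 10071 genes. The 12 arrays were fitted alone because column numbers recur over the times. The methods' test, Illumina's custom error model, was not run. The column numbers are not the replicate numbers in the labels, so for the main fit columns were assigned to groups only. For the fit on the authors' normalized table, each column was linked to a sample by the rank correlation of signals. The best correlation was 1 for all 61 arrays, the highest second one was 0.916, and the group matched for all 61. Of the probes, 34885 have 1 gene in the platform annotation, 18 have several and 10378 have none; 34807 were matched to current symbols, and of 3829 genes with more than 1 probe the brightest was kept. Differences with 1 h were fitted on the 24 arrays of 0 and 1 h and the 20 of 1 and 3 h with genotype and column number as a block, on the assumption that a number marks the same source over the times. Array number limits the precision.

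Genes named are Il6st, the 15 largest called differences per direction, 8 genes the study groups, up to 4 called members of each list and the largest called changes from 0 h and to 3 h; uncalled list members, genes called for their dependence on the set and genes near Il6st were named after their values were seen. Members, lists and the set covariate were chosen with earlier results of these data known. Alternatives were other normalizations, offsets, filters, thresholds, blocks and samples, and each array left out in turn. The scripts were tested on simulated data.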

Additional observations from a re-analysis of the deposited data

Results flagged for a closer look

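Of 136 groups of 6 arrays tested for an array far from the rest (Dixon's ratio past its critical value), 9 had one (6.62%). Chance gives about 1 in 20 where the arrays of a group follow a single normal distribution. Each group here holds arrays of both sets, so a difference between the sets can mark or hide an array, and that rate is no fair measure. Array gp130flox 1 was the low array for Cish (7.92, next 9.84), Fos (6.51, next 7.61), Smpdl3b (5.63, next 6.47) and Timp1 (7.61, next 8.78). Array gp130- 4 was low for Junb (7.47, next 8.54) and high for Stat3 (9.11, next 8.15). Array gp130flox 2 was low for Depp1 (4.89, next 5.94) and high for Sult1c2 (6.14, next 5.08), and gp130- 9 was low for Nr1h4 (7.83, next 8.58).

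Limma's interaction term is the genotype difference in numbers 6 to 11 minus that in numbers 1 to 4. It was 3.91 for Fgfr1op2, 3.08 for Ifit3, 2.44 for Rassf8, 2.22 for G6pc and 2.09 for Cyp17a1. For Csrp3 it was 1.77, for Apoc4 1.71 and for Klra4 1.65. The same term was -4.15 for Saa2, -2.48 for Apoa1, -2.05 for Tnfsf14, -1.64 for Thap4 and -1.31 for Mrgprb2. Some of these genes were near background in 1 set in both genotypes, where a difference could hardly be seen. In numbers 1 to 4 no level passed 4.33 for Cyp17a1, 4.38 for Csrp3, 4.48 for G6pc or 4.50 for Tnfsf14. In numbers 6 to 11 none passed 4.43 for Mrgprb2. Adjusted p ran from 0.000176 for Fgfr1op2 to 0.0447 for Mrgprb2.

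The genotype difference at 1 h minus that at 0 h passed its own test for Socs3 (-2.78), Zfp36 (-1.10) and Angptl4 (-0.92).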

How the results depend on the processing

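The 172 calls of the 12-array fit became 20 without the set covariate, 2 in numbers 1 to 4 alone, 456 in numbers 6 to 11 alone, 282 with all 61 arrays and 368 with genotype and column number as a random block on those 61. They became 70 without a detection filter, 259 with array weights, 73 at a fold threshold of 2 and 448 without gp130- 2 and 3, the arrays with Xist. The 59 called list members became 14 without the set, 0 in numbers 1 to 4, 102 in numbers 6 to 11, 31 without a detection filter, 33 at a fold of 2 and 95 without gp130- 2 and 3. Leaving out each array gave 86 to 232 calls and 34 to 75 list members. Il6st ran from -0.93 to -0.64 over those fits, and was called with all 61 arrays (-0.80, adjusted p = 0.00675), with that random block on them (-0.78, adjusted p = 0.0249) and with array weights (-0.94, adjusted p = 0.0371). Without the set the differences of C8g (-0.30) and Cyp2e1 (-0.63) changed sign. Over the other settings, the 67 named genes kept their direction and their side of the thresholds in 1010 fits, lost a call in 249, gained one in 9 and changed sign in these 2. With an array left out they kept direction and side in 626, lost a call in 175, gained one in 3 and changed sign in 0. The numbers 2, 7 and 9 occur in both genotypes, and their residuals correlated at 0.03, -0.12 and -0.11, so numbers were not taken to pair arrays. With the column number as a fixed replicate block 29 genes and 18 list members were called, and with it as a random block 196 and 66. The 3 changes from 0 to 1 h became 1 without the replicate block, 6 in numbers 1 to 4 and 5 in numbers 6 to 11, and 2 to 10 with an array left out. The change of Zfp36 was not called without the block, in numbers 1 to 4 or in numbers 6 to 11 (adjusted p 0.137, 0.386 and 0.0941). The 0 changes from 1 to 3 h became 1 with genotype and number as a random replicate block and 3 with an offset of 50, and 0 to 1 with an array left out. The 13 genes dependent on the set became 24 with an offset of 50, 121 with array weights and 3 to 110 with an array left out, settings chosen after seeing the data, as was leaving out gp130- 4 for all genes (232). Causes were not tested. Genes near background, such as Il24, Saa2 and Cyp2e1 in numbers 1 to 4, have compressed differences under an added offset.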

Other observations

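At 3 h, 53 of the 95 genes lower in gp130- hepatocytes at 1 h and 22 of the 77 higher ones were called again, and all 172 had the same sign as at 1 h. The 1 h and 3 h arrays share column numbers. Prss22, a serine protease, and Rasl12, a Ras-like protein, were detected on no gp130- array at 1 h. Measured against the dimmest detected signal, they were at least 1.22-fold and 1.35-fold lower there. Both bounds lie below the fold threshold of the calls. A gene without detection on gp130- arrays passes the detection filter only through gp130flox arrays, so this direction is in part built in. Both genes are named after their values were seen.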
